A study of Rattus norvegicus with 20 samples.

Results

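Proteasome subunit genes were taken from the nucleus accumbens count table by symbol alone, as the rows named Psm followed by a letter from a to g and a number. The rule used no measured value, and 47 of the 17296 gene symbols in the table met it. They comprise 8 alpha genes (Psma), 11 beta genes (Psmb), 6 ATPase genes of the regulatory particle (Psmc) and 14 genes named as its non-ATPases (Psmd). A further 4 genes encode activators (Psme), 1 encodes an inhibitor (Psmf1) and 3 encode assembly chaperones (Psmg). RNA came from the nucleus accumbens, a ventral striatal part of the reward circuit, of male wild-type Sprague-Dawley rats aged 7 to 9 weeks per the labels. All 4 groups shared cocaine self-administration. The H2O group (n = 5) drank water and had a normal microbiome, the Abx group (n = 4) drank antibiotics that deplete the microbiome, the SCFA group (n = 6) drank short-chain fatty acids, and the Abx_SCFA group (n = 5) received both. Each library came from 1 rat, rats were housed 2 to a cage, and the labels used here do not name cage mates.

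The proteasome degrades proteins that carry ubiquitin chains. Its core is a barrel of stacked alpha and beta rings, in which the alpha subunits gate entry and only 3 kinds of beta subunit cut: Psmb5 cuts after hydrophobic residues, Psmb6 after acidic residues and Psmb7 after basic residues. Cells exposed to interferon replace these constitutive subunits with the immune subunits Psmb8, Psmb9 and Psmb10, respectively, which favours peptides that bind MHC class I. Psme1 and Psme2 form an interferon-inducible cap on the core. In brain, constitutive particles are present in neurons and glia and take part in synaptic protein turnover, whereas immune subunits are low in healthy brain and are known to be induced in microglia.

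Library totals ranged from 17525358 to 25731636 counts. Medium spiny neuron markers, which define the accumbens, were detected in every library, with a summed level of 3655 to 8845 CPM (counts scaled to the library total) over 12 of 12 listed genes. Markers of cortical excitatory neurons summed to 43.3 to 1528 CPM and were highest in SCFA replicate 5, and SCFA replicates 2 and 5 had the highest Slc17a7. Oligodendrocyte markers summed to 15346 to 23129 CPM in H2O, 6898 to 14476 CPM in Abx, 6444 to 24805 CPM in SCFA and 11845 to 21035 CPM in Abx_SCFA. The rat numbers in the library titles fall into a 200 and a 300 series for H2O and Abx and a 400 series for SCFA and Abx_SCFA. The series and the fatty acids thus cannot be told apart. H2O replicate 1 stood apart from the other libraries in immune proteasome genes, and the results that rest on it are given with and without it.

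Of the 47 members, 46 passed the filter on low counts and were tested among 12846 genes. The exception was Psma8, an alpha subunit known from testis, which had 0 to 2 counts per library. The CPM values below are not divided by transcript length, so that they compare libraries and not genes. Mean CPM over 20 libraries ran from 84.6 for Psmc6 to 203 for Psmc5 among the ATPases, and from 10.8 for Psmd10 to 286 for Psmd2 among the non-ATPases. Psmd2 is a scaffold subunit of the regulatory particle and Psmd10 an assembly chaperone of its base. Among the tested beta genes the thymic subunit Psmb11 had the lowest mean, 1.16 CPM, and the structural subunit Psmb4 the highest, 140 CPM. All 47 symbols are current in RefSeq. RefSeq lists Psma3l, a separate row of the table, as a synonym of Psma3, so that reads could be split between them and the counts of Psma3 are uncertain, and 13 members overlap another annotated gene, among them Psme1 with Emc9.

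No proteasome gene passed the test in any of the 6 contrasts between the treatment groups (edgeR quasi-likelihood test, Benjamini-Hochberg adjusted p below 0.05, 46 members). The background was also empty: 0% of the 12846 genes were called in each contrast, which set Abx, SCFA and Abx_SCFA against H2O and Abx_SCFA against each single treatment, or asked for an interaction. At an unadjusted p below 0.05, 4 members were called in Abx against H2O, all of them lower, beside 8.79% of all genes, of which 5.53% were lower and 3.26% higher. They were Psme2, Psme1, Psmb8 and Psmb9. In the other 5 contrasts 0 members reached that level, whereas 13.8% of all genes did in SCFA against H2O, 5.56% in Abx_SCFA against H2O, 3.19% in Abx_SCFA against Abx, 6.78% in Abx_SCFA against SCFA and 7.85% in the interaction. DESeq2 also called 0 members at an adjusted p below 0.05 in each contrast, and limma-voom called 0.

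**Figure D1:**
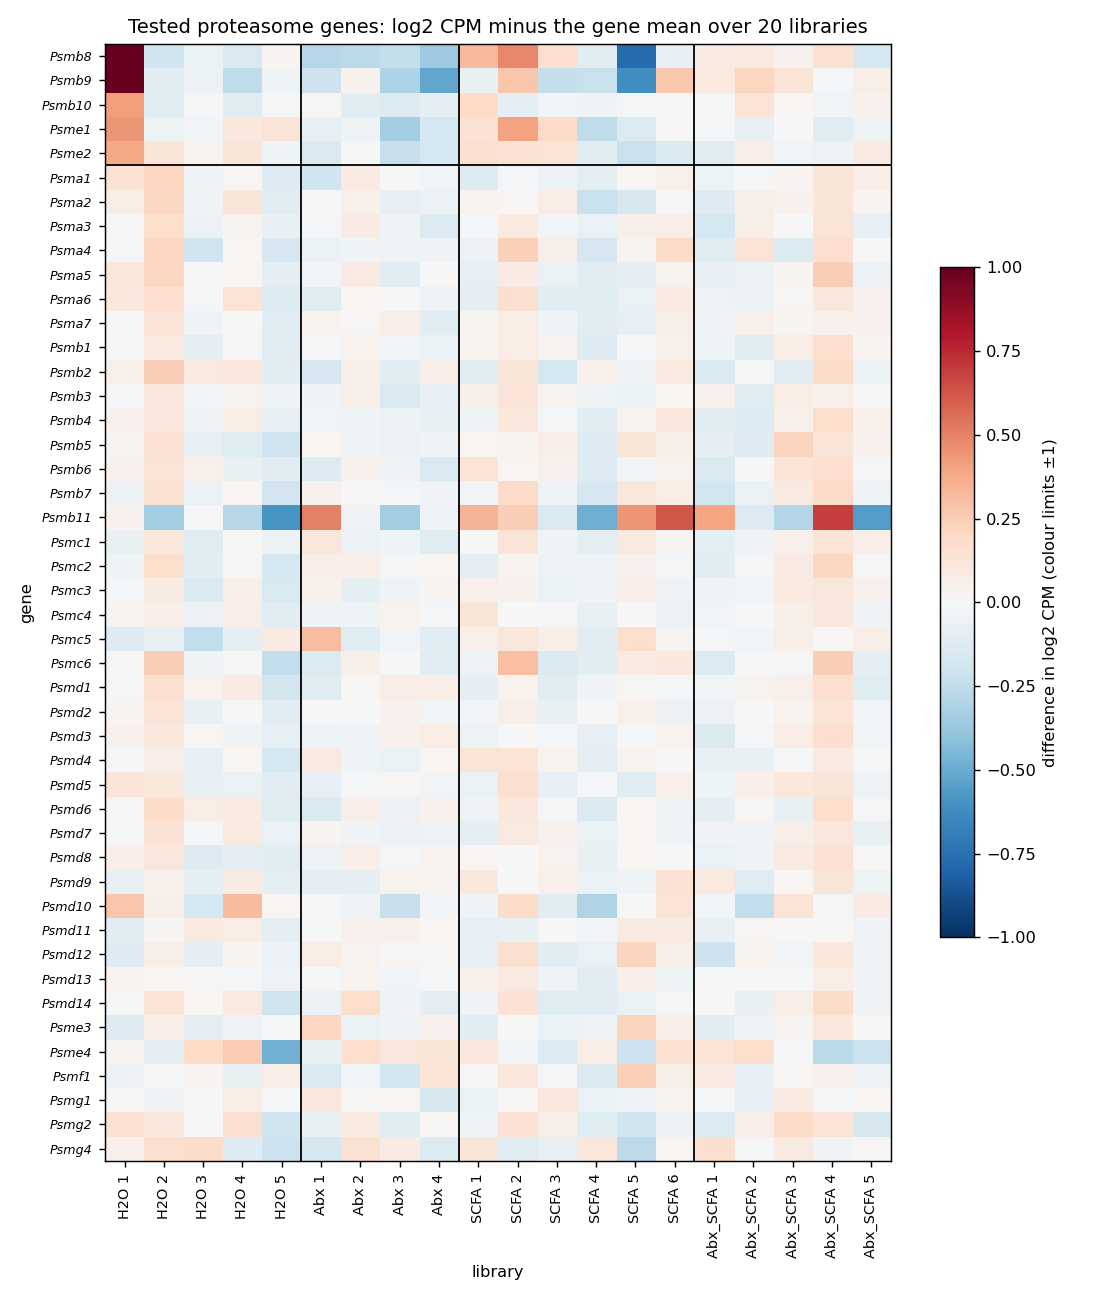
Difference of log2 CPM from the gene's mean over 20 libraries for the 46 tested proteasome genes (rows) in each library (columns), with the interferon-inducible genes above the line and colour limits of ±1 log2, which Psmb8 and Psmb9 in H2O replicate 1 reach or exceed. The 5 upper genes are darkest red in H2O replicate 1, where their level was 1.25 to 3.30 times the mean of the other H2O libraries.

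The constitutive core and regulatory particle genes kept nearly the same level in all 4 groups. Over the 42 tested members other than the immune and thymic subunits, the highest group mean was at most 1.22 times the lowest, with a median of 1.05 times, and in 38 of them it was below 1.1 times. The member with the ratio of 1.22 was the activator gene Psme1. The 95% confidence interval of the log2 fold change lay within ±0.5 for 41 of 42 members in Abx against H2O and for 42 of 42 in the 4 other direct contrasts.

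Psmb5, the chymotrypsin-like catalytic subunit, stood at 88.4, 95.6, 81.6, 79.5 and 75.5 CPM in H2O replicates 1 to 5 and at 87.9, 84.5, 83.2 and 84.4 CPM in Abx. In SCFA its lowest, median and highest values were 79.0, 89.5 and 94.3 CPM, and in Abx_SCFA the values were 80.8, 79.2, 101, 94.9 and 89.1 CPM. The 4 groups overlapped, and the spread within H2O and within Abx_SCFA was wider than the distance between any group means, which were 84.1 ± 7.9 (SD, n = 5), 85.0 ± 2.0 (n = 4), 88.5 ± 5.2 (n = 6) and 89.0 ± 9.2 CPM (n = 5). Psmb6, the caspase-like subunit, had group means of 61.2 ± 4.2, 58.0 ± 3.6, 61.3 ± 3.7 and 62.2 ± 5.3 CPM in H2O, Abx, SCFA and Abx_SCFA. Psmb7, the trypsin-like subunit, had 132 ± 11.6, 134 ± 3.0, 136 ± 12.1 and 134 ± 13.4 CPM in the same order. For each of the 3 genes every group overlapped every other.

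By class, the signs of the small differences varied with the contrast. Of the 7 tested alpha genes, 1 had a positive log2 fold change in Abx against H2O (median -0.06), 2 in SCFA against H2O (median -0.08) and 7 in Abx_SCFA against Abx (median 0.05). The 7 constitutive beta genes had medians of -0.06, 0.01 and 0.06 in these contrasts. All 6 ATPase genes, which unfold substrates, were positive in Abx_SCFA against H2O, with values of 0.0045 to 0.10. The 14 non-ATPase genes, only some of which recognise or deubiquitinate substrates, had medians between -0.01 and 0.03 in every contrast. The 3 assembly chaperone genes ranged from -0.07 to -0.01 in Abx against H2O, and the inhibitor gene Psmf1 had -0.04. None of these genes passed the test, and the signs are given as a description only.

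Over all 46 members, 16 were positive and 30 negative in Abx against H2O (median -0.02, against -0.0083 for all genes, of which 47.7% were positive). That split was 21 to 25 with DESeq2 size factors and 23 to 23 without scaling factors. The members divided 19 to 27 in SCFA against H2O (48.9% of all genes positive), and 28 to 18 there without scaling factors. In Abx_SCFA against H2O 26 were positive (47.6% of all genes), in Abx_SCFA against SCFA 26 (45.5%) and in the interaction 32 (51.8%). Abx_SCFA against Abx was the most one-sided, with 39 positive and 7 negative at a median of 0.04, beside 49.9% positive among all genes. Without Abx_SCFA replicate 4 the positive count there was 26 of 46, and the contrasts share libraries, so that these splits are not independent of each other.

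The genes named next are those with the smallest p in each direction. Psmc5, an ATPase, had the smallest p among positive members in Abx against H2O, with a log2 fold change of 0.11 ± 0.081 (SE), and in SCFA against H2O, with 0.14 ± 0.073 (unadjusted p = 0.0689, edgeR adjusted p = 0.401). Its CPM was 170 to 214 in H2O, 186 to 251 in Abx, 187 to 228 in SCFA and 198 to 211 in Abx_SCFA. The groups overlapped, and Abx replicate 1 held the highest value. With a cortical marker score as a covariate Psmc5 turned negative, to -0.044 and -0.039 in these contrasts. Psmd4, a ubiquitin receptor, was 0.08 in SCFA against H2O and -0.06 in Abx_SCFA against SCFA. Psma2 was -0.10 in SCFA against H2O and 0.07 in Abx_SCFA against SCFA, where Psma1 was also 0.07 and Psmd1, a scaffold, was 0.06. Psmb2, a structural beta subunit, was -0.11 in Abx_SCFA against H2O, where the ATPase Psmc3 was 0.07. In Abx_SCFA against Abx the largest constitutive difference with a small p was 0.10 ± 0.070 for Psmb6, and Psme4, the nuclear activator PA200, was -0.11, the lid subunit Psmd11 -0.04 and the lid subunit Psmd12 -0.06. None of these reached an unadjusted p below 0.05.

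Psmb11, the subunit of thymic cortical cells, was counted in every library at 15 to 41 counts. Its lowest, median and highest values were 0.709, 0.901 and 1.15 CPM in H2O, 0.855, 1.08 and 1.62 CPM in Abx, 0.768, 1.39 and 1.76 CPM in SCFA, and 0.727, 1.01 and 1.86 CPM in Abx_SCFA. The groups overlapped. Its log2 fold change was 0.47 ± 0.27 in SCFA against H2O (edgeR adjusted p = 0.453), and counting error alone gives a standard deviation of 0.29 log2 at this depth, of the 0.40 measured within groups.

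The interferon-inducible members stood out in 1 water library. Their upstream sequences are shown because these 5 genes were the members that were highest of all 20 libraries in H2O replicate 1. The sequences of the constitutive counterparts Psmb5 and Psmb6, which were not highest there, are also printed. That of Psmb7, which holds none of the motifs described below, is not. Each sequence is the 250 bases before the RefSeq start of the gene in the GRCr8 assembly, read 5′ to 3′ on the gene's strand. Capitals mark matches to a form of the interferon regulatory factor element, GAAA repeated after 2 bases of any kind, to TTCNNNGAA, the STAT element, and to TGACNNNGC, the core of the antioxidant response element, each searched on both strands.
Psmb8, chr20:4657032-4657281, minus strand: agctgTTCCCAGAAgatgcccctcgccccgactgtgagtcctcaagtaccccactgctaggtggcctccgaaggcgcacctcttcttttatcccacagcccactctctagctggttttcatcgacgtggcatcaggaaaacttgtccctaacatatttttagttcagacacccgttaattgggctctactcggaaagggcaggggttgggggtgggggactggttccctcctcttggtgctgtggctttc
Psmb9, chr20:4668750-4668999, plus strand: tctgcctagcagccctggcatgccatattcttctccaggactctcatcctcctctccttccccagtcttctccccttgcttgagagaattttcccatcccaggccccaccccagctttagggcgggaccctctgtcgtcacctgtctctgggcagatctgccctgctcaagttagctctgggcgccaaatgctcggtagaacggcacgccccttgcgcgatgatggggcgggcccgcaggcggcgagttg
Psmb10, chr19:50743293-50743542, minus strand: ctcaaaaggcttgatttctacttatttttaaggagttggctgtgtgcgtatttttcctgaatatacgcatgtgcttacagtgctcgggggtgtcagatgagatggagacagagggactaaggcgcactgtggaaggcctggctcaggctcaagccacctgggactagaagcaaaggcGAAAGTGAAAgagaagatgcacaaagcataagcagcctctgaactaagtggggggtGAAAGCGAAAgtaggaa
Psme1, chr15:33038721-33038970, plus strand: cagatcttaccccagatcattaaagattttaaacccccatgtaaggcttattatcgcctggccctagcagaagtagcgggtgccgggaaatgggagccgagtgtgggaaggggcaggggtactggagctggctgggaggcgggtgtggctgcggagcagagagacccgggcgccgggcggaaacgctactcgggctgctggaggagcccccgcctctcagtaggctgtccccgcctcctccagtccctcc
Psme2, chr15:33052752-33053001, minus strand: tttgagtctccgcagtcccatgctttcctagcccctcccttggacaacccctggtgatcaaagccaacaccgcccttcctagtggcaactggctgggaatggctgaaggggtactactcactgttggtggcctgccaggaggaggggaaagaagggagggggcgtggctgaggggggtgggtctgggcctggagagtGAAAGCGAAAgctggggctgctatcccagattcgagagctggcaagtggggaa
Psmb5, chr15:32047380-32047629, minus strand: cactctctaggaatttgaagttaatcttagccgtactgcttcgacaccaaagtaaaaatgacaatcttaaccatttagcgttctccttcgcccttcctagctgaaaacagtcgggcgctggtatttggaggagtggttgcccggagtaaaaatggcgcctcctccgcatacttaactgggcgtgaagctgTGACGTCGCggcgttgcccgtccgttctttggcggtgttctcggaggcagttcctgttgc
Psmb6, chr10:55737638-55737887, plus strand: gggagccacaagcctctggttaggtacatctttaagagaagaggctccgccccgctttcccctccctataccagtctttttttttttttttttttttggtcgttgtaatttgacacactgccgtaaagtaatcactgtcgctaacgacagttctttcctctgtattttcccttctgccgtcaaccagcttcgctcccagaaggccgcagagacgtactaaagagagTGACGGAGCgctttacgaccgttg

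Psmb10 holds the interferon regulatory factor element in 2 places, starting 73 and 17 bases upstream of the start, and Psme2 holds it once, 53 bases upstream. Psmb8 holds TTCNNNGAA 245 bases upstream, and the windows of Psmb9, Psme1 and Psmb7 hold none of the 3 motifs. Psmb5 and Psmb6 hold TGACNNNGC at 60 and 24 bases upstream. Of the 42 members found in the promoter table, 5 hold the interferon regulatory factor element (11.9%, against 3.29% of 27457 promoters), namely Psma4, Psmb3, Psmb10, Psmd7 and Psme2. TTCNNNGAA occurred in 4 of 42 (9.52%, against 7.52%), namely Psmb8, Psmc6, Psmd3 and Psmd7. TGACNNNGC occurred in 7 of 42 (16.7%, against 10.2%), namely Psma3, Psmb2, Psmb5, Psmb6, Psmd1, Psmd9 and Psme4. In the sequences printed no match overlaps another. The matches are letters in a window and not measured binding. The members Psma7, Psmb11, Psmd6, Psmd12 and Psmd14 were not analysed here in this respect.

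Psmb8, which replaces Psmb5, measured 13.4, 4.63, 5.07, 4.78 and 5.44 CPM in H2O replicates 1 to 5 and 4.34, 4.40, 4.50 and 4.12 CPM in Abx. In SCFA it measured 6.70, 7.46, 5.98, 4.95, 3.09 and 5.01 CPM, and in Abx_SCFA 5.63, 5.71, 5.49, 5.92 and 4.70 CPM. All 4 Abx libraries lay below every H2O and every Abx_SCFA library, H2O replicate 1 lay far above all others, and SCFA held both the second highest and the lowest library. In counts, H2O replicate 1 had 257 and the other libraries 78 to 145. The log2 fold change of Abx against H2O was -0.62 ± 0.28 (unadjusted p = 0.0367, edgeR adjusted p = 0.563). Without H2O replicate 1 it was -0.20 ± 0.19, with an unadjusted p of 0.30, and with a cortical marker score as a covariate it was -0.30 (unadjusted p = 0.36). Within the 200 series, which holds that library, the difference in mean log2 CPM was -0.84 (2 Abx and 2 H2O rats), and within the 300 series it was -0.24 (2 and 3 rats). Since the tissue was measured in bulk, fewer cells of a type and less RNA per cell cannot be told apart.

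Psmb9, which replaces Psmb6, measured 13.8, 4.18, 4.35, 3.79 and 4.40 CPM in H2O replicates 1 to 5 and 3.91, 4.68, 3.65 and 3.13 CPM in Abx. The SCFA libraries had 4.31, 5.51, 3.83, 3.89, 2.93 and 5.51 CPM and the Abx_SCFA libraries 4.86, 5.28, 4.98, 4.50 and 4.74 CPM. Apart from H2O replicate 1 the H2O and Abx ranges overlapped, and every Abx_SCFA library was above the other 4 H2O libraries. Its log2 fold change in Abx against H2O was -0.66 ± 0.31 (unadjusted p = 0.0436, edgeR adjusted p = 0.563), -0.12 ± 0.17 without H2O replicate 1, and -0.33 with the cortical covariate. The within-series differences were -0.82 in the 200 series and -0.30 in the 300 series.

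Psmb10, which replaces Psmb7, had the smallest log2 fold change of the immune subunits in Abx against H2O. It measured 26.1, 17.9, 19.2, 18.1 and 19.1 CPM in H2O, 19.6, 17.9, 17.7 and 18.2 CPM in Abx, 22.4, 18.3, 19.1, 18.9, 19.3 and 19.3 CPM in SCFA, and 19.3, 21.3, 19.8, 19.1 and 20.1 CPM in Abx_SCFA. All groups overlapped, with H2O replicate 1 and then SCFA replicate 1 highest. The log2 fold change in Abx against H2O was -0.13 ± 0.092 (unadjusted p = 0.177, edgeR adjusted p = 0.685), -0.02 without H2O replicate 1 and -0.05 with the cortical covariate.

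Psme1, the alpha chain of the inducible cap, measured 45.8, 32.5, 33.1, 36.3 and 37.0 CPM in H2O and 31.9, 32.6, 26.5 and 29.8 CPM in Abx. In SCFA the lowest, median and highest values were 28.3, 35.4 and 44.7 CPM, and Abx_SCFA ran from 31.3 to 33.6 CPM. H2O and Abx met at 32.5 and 32.6 CPM and otherwise did not overlap, and SCFA spanned both. The log2 fold change in Abx against H2O was -0.29 ± 0.11 (unadjusted p = 0.0185, edgeR adjusted p = 0.563). It was -0.20 ± 0.11 without H2O replicate 1 (unadjusted p = 0.0743) and -0.23 without Abx replicate 3 (unadjusted p = 0.0772). Within the number series the differences were -0.26 and -0.33.

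Psme2, the beta chain of the cap, had the smallest p of all members. It measured 34.2, 28.6, 26.9, 28.6 and 25.6 CPM in H2O and 23.8, 26.4, 22.4 and 23.3 CPM in Abx, so that the groups overlapped only in Abx replicate 2 and H2O replicate 5. The SCFA libraries ran from 22.5 to 29.4 CPM and the Abx_SCFA libraries from 24.3 to 28.0 CPM. The log2 fold change in Abx against H2O was -0.26 ± 0.093 (unadjusted p = 0.0103, edgeR adjusted p = 0.563), -0.19 ± 0.089 without H2O replicate 1 (unadjusted p = 0.0414), and -0.32 and -0.24 within the 200 and 300 series. With a cortical marker score as a covariate it was -0.14 (unadjusted p = 0.185). Psme1 and Psme2 are neighbours in the genome, with Emc9 between them. In the same contrast the log2 fold changes of cell type markers were negative for 12 of 12 oligodendrocyte genes (median -0.68), 12 of 14 microglial genes (median -0.15), 8 of 8 astrocyte genes (median -0.12) and 7 of 8 endothelial genes (median -0.12), and positive for 10 of 10 cortical excitatory genes (median 2.19). None of these markers passed the test (smallest edgeR adjusted p = 0.563). At an unadjusted p below 0.05, 11 oligodendrocyte, 1 microglial, 2 astrocyte and 0 endothelial genes were lower, beside 5.53% of all genes. Higher at that level were 6 cortical excitatory genes, beside 3.26% of all genes. Apart from the cortical score used as a covariate, the part of these cell types in the proteasome values was not tested.

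**Figure D2:**
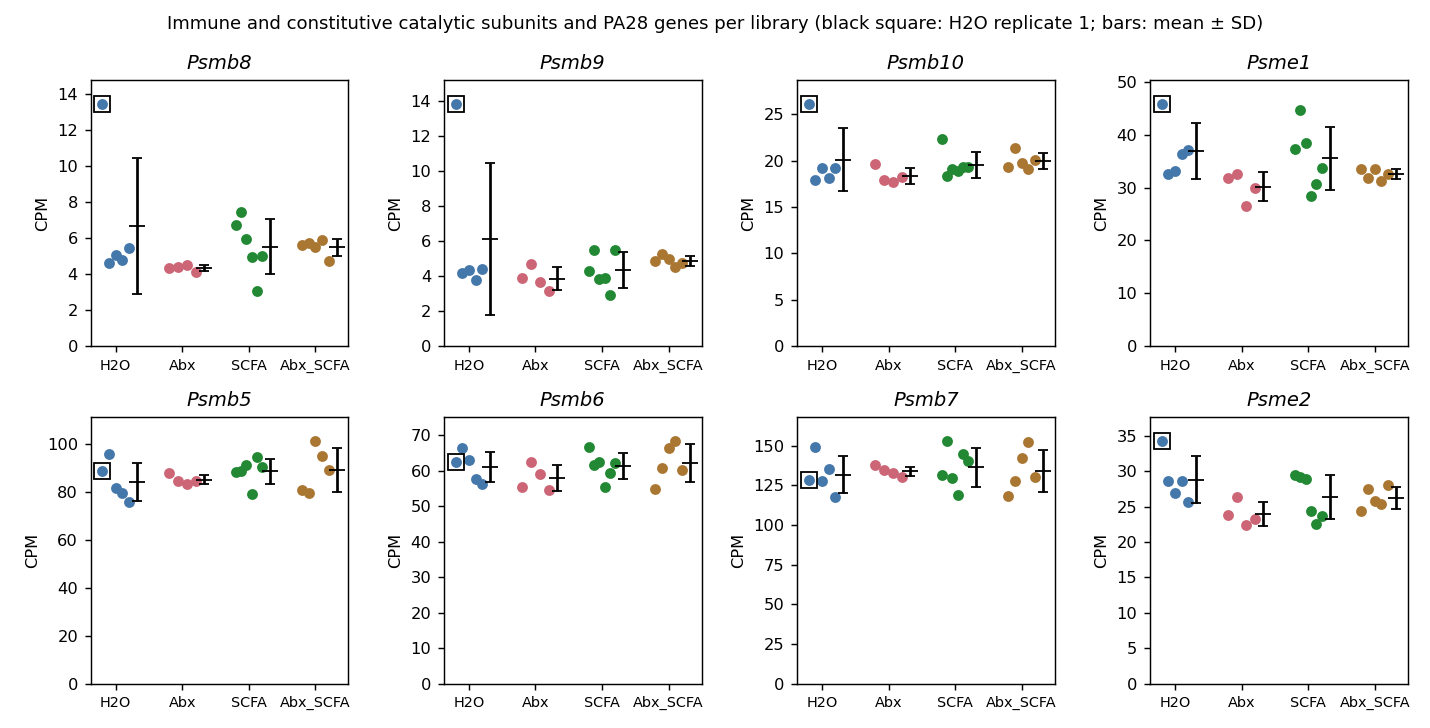
CPM of the immune subunits Psmb8, Psmb9 and Psmb10, the constitutive subunits Psmb5, Psmb6 and Psmb7, and the cap genes Psme1 and Psme2, with 1 point per library by group and bars for the mean ± SD. H2O replicate 1, boxed, is the highest of 20 libraries for the immune and cap genes (13.4 CPM for Psmb8 and 13.8 CPM for Psmb9) and lies inside the H2O range for the 3 constitutive subunits.

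H2O replicate 1 was far above the other 4 H2O libraries in the interferon-inducible members, whereas the rest of the proteasome was near their mean. It exceeded their mean 3.30-fold for Psmb9, 2.70-fold for Psmb8, 1.40-fold for Psmb10, 1.32-fold for Psme1 and 1.25-fold for Psme2. Over the 40 other members, leaving out Psmb11 and Psma8, the same ratio ran from 0.915 to 1.16 with a median of 1.01, and 0 of the 40 were highest of all 20 libraries there. These ratios describe 1 library and have no test.

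Some listed MHC class I and interferon genes stood out in the same library. The guanylate-binding protein gene Gbp2 was at 72.4 CPM, against at most 11.8 CPM elsewhere. Tap1, a subunit of the peptide transporter into the endoplasmic reticulum, was at 28.4 CPM, against at most 13.0 CPM, and Irf1, an interferon-induced transcription factor, at 23.6 CPM, against at most 11.7 CPM. B2m, the MHC class I light chain, was at 469 CPM, against at most 384 CPM. All 4 highest values elsewhere were in Abx_SCFA replicate 2, which was also highest of its group for Psmb9 and Psmb10. Of 25 listed MHC class I and interferon genes, 14 were highest in H2O replicate 1. This held for 0 of 22 genes for proteasome assembly and shuttling and 0 of 24 ubiquitin genes. The share of all genes highest in that library was not computed. The lists were chosen with earlier results of these data known, so that these counts are a description only. Not every interferon gene of the list stood out. Relative to the mean of the other H2O libraries, Mx1 was 0.653-fold, Mx2 1.02-fold, Oas1a 1.04-fold, Irf9 1.06-fold and Stat2 1.12-fold. In RefSeq, Tap2, Psmb8, Tap1 and Psmb9 lie next to each other in this order.

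The cell type markers of H2O replicate 1 were as follows. Lymphocyte and NK cell markers summed to 34.9 CPM over 13 listed genes, against 22.5 to 34.5 CPM in the other libraries. Cd8a, Lck, Nkg7 and Ptprc were highest there, and Ms4a1 was at 0. Microglial markers summed to 1101 CPM, against 794 to 1165 CPM elsewhere, and endothelial markers to 574 CPM, against 417 to 714 CPM. Lymphocyte markers were therefore at the top of their range and the microglial and endothelial sums inside theirs. Their part in the immune subunit levels was not tested.

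**Figure D3:**
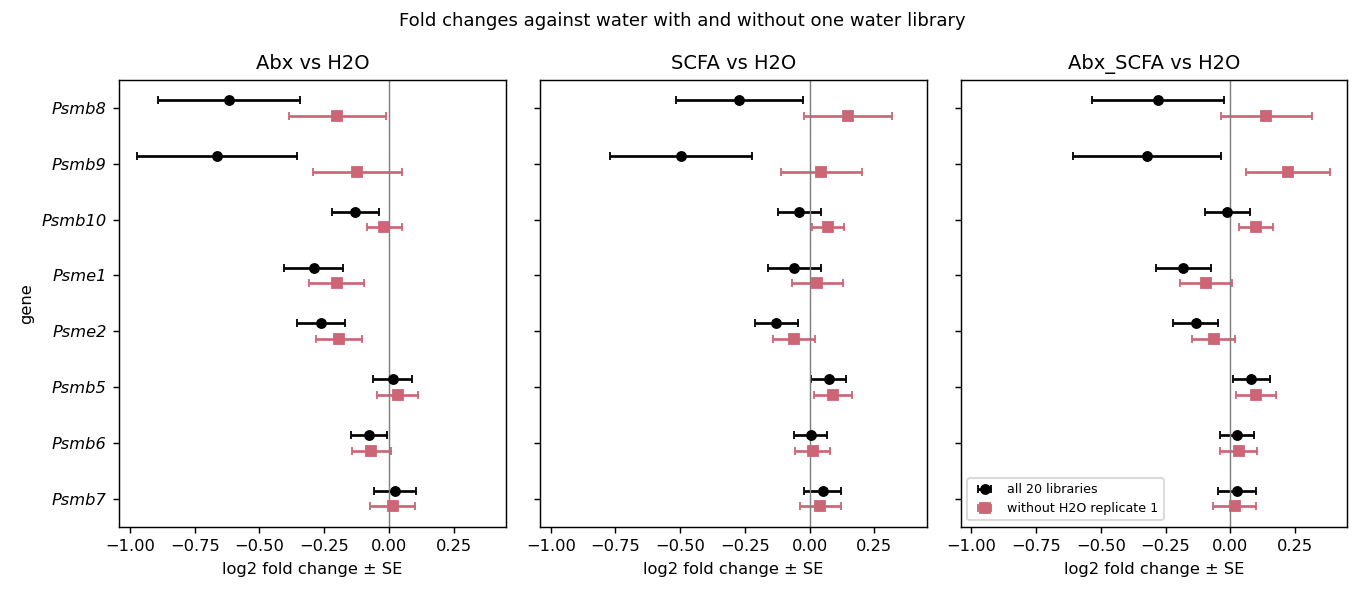
Log2 fold change ± SE against water of the immune, cap and constitutive catalytic genes, fitted on all 20 libraries (black circles) and without H2O replicate 1 (red squares), in 3 panels for Abx, SCFA and Abx_SCFA. Psmb8 and Psmb9 move from -0.62 and -0.66 to -0.20 and -0.12 in Abx against H2O, while the symbols of Psmb5, Psmb6 and Psmb7 nearly coincide.

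Against H2O the fatty acid groups showed the same dependence on that library. In SCFA against H2O, Psmb8 was -0.27 ± 0.24, Psmb9 -0.50 ± 0.27 and Psmb10 -0.04 ± 0.083 (edgeR adjusted p from 0.432 to 0.883). Without H2O replicate 1 all 3 turned positive, to 0.15, 0.05 and 0.07. Psme1 went from -0.06 to 0.03 and Psme2 from -0.13 to -0.06. In Abx_SCFA against H2O the immune subunits were at -0.28 ± 0.26, -0.32 ± 0.29 and -0.01 ± 0.087, and at 0.14, 0.22 and 0.10 without that library. Psme1 and Psme2 stayed negative there, at -0.18 ± 0.11 and -0.13 ± 0.087 with it and -0.09 and -0.06 without it. Leaving out 1 of 5 water libraries thus turned the sign of the immune subunit differences from water. Within SCFA, replicate 2 was highest for Psmb8 and Psme1 and replicate 5 lowest for Psmb8, Psmb9 and Psme2, and these are the libraries with the highest cortical Slc17a7. Without both, Psmb8 was -0.23 and Psmb9 -0.48 in SCFA against H2O.

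Adding fatty acids to antibiotics was compared without the water libraries. In Abx_SCFA against Abx, Psmb8 was 0.34 ± 0.28 (unadjusted p = 0.235), Psmb9 0.34 ± 0.31, Psmb10 0.12 ± 0.092, Psme1 0.11 ± 0.11 and Psme2 0.13 ± 0.093, all with an edgeR adjusted p of 0.999. The 4-group model shares 1 estimate of spread, which H2O replicate 1 widens. Without that library the estimates were the same to 2 decimals and the standard errors fell to 0.18 for Psmb8 and 0.16 for Psmb9 (unadjusted p = 0.0704 and 0.0489, edgeR adjusted p = 0.999). Fitted on the Abx and Abx_SCFA libraries alone, Psmb8 was 0.33 ± 0.12 (unadjusted p = 0.0148) and Psmb9 0.34 ± 0.14 (unadjusted p = 0.0327), with an edgeR adjusted p of 0.978 for both. Cell type markers were also mostly positive in this contrast, with 13 of 14 microglial genes (median log2 fold change 0.12), 12 of 12 oligodendrocyte genes (median 0.24), 8 of 8 endothelial genes (median 0.27, 5 of them at an unadjusted p below 0.05) and 7 of 8 astrocyte genes (median 0.08). The microglial sum was 881 to 918 CPM in Abx and 869 to 1054 CPM in Abx_SCFA, and the endothelial sum 417 to 559 CPM and 582 to 714 CPM. The part of these cell types in the result was not tested.

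Among fatty acid drinking rats, Abx_SCFA against SCFA, Psmb8 was -0.01 ± 0.25, Psmb9 0.18 ± 0.28, Psmb10 0.03 ± 0.083, Psme1 -0.12 ± 0.10 and Psme2 -0.01 ± 0.084. The interaction, which asks whether the antibiotic difference depends on fatty acids, was 0.84 ± 0.41 for Psmb9 (unadjusted p = 0.0554), 0.26 ± 0.13 for Psme2 (unadjusted p = 0.0528) and 0.61 ± 0.37 for Psmb8, with edgeR adjusted p of 0.626, 0.626 and 0.652. Without H2O replicate 1 these were 0.30, 0.19 and 0.19. Negative members with the smallest p were Psmc5 at -0.15, Psmd12 at -0.13 and Psmd4 at -0.09.

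The ratio of an immune subunit to the constitutive subunit it replaces was computed within each library, which removes library scaling. The log2 ratio of Psmb8 to Psmb5 was -3.77 ± 0.63 (SD, n = 5) in H2O, -4.26 ± 0.067 (n = 4) in Abx, -4.03 ± 0.47 (n = 6) in SCFA and -3.99 ± 0.20 (n = 5) in Abx_SCFA. The H2O median was -3.98 and its maximum, in replicate 1, was -2.71. For Psmb9 to Psmb6 the means were -3.50 ± 0.75, -3.90 ± 0.17, -3.83 ± 0.32 and -3.65 ± 0.17, and for Psmb10 to Psmb7 they were -2.72 ± 0.29, -2.86 ± 0.047, -2.79 ± 0.18 and -2.74 ± 0.17. Abx had the lowest mean for each ratio, and the narrowest spread for Psmb8 to Psmb5 and for Psmb10 to Psmb7. Without replicate 1 the H2O means were -4.03 ± 0.23, -3.83 ± 0.14 and -2.82 ± 0.19 (n = 4).

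None of the 15 differences between groups passed after adjustment (exact permutation tests, two-sided, Benjamini-Hochberg over all of them). The smallest exact p was 0.0317 for Psmb8 to Psmb5 in Abx_SCFA against Abx, a difference of 0.27 log2 (adjusted p = 0.397). The exact p was 0.0794 for the same ratio in Abx against H2O, a difference of -0.50, and 0.0794 for Psmb9 to Psmb6 in Abx_SCFA against Abx, a difference of 0.25. The smallest exact p that 5 against 4 libraries allow is 0.0159, and multiplied by 15 it is 0.238, so that no single ratio could have passed alone. Without H2O replicate 1, Abx minus H2O fell in size from -0.50 to -0.23 for Psmb8 to Psmb5, from -0.40 to -0.06 for Psmb9 to Psmb6 and from -0.14 to -0.04 for Psmb10 to Psmb7 (exact permutation, adjusted p = 0.536, 0.952 and 0.952). Within the 200 and 300 series, Abx minus H2O was -0.75 and -0.32 for Psmb8 to Psmb5, -0.69 and -0.25 for Psmb9 to Psmb6, and -0.18 and -0.12 for Psmb10 to Psmb7.

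**Figure D4:**
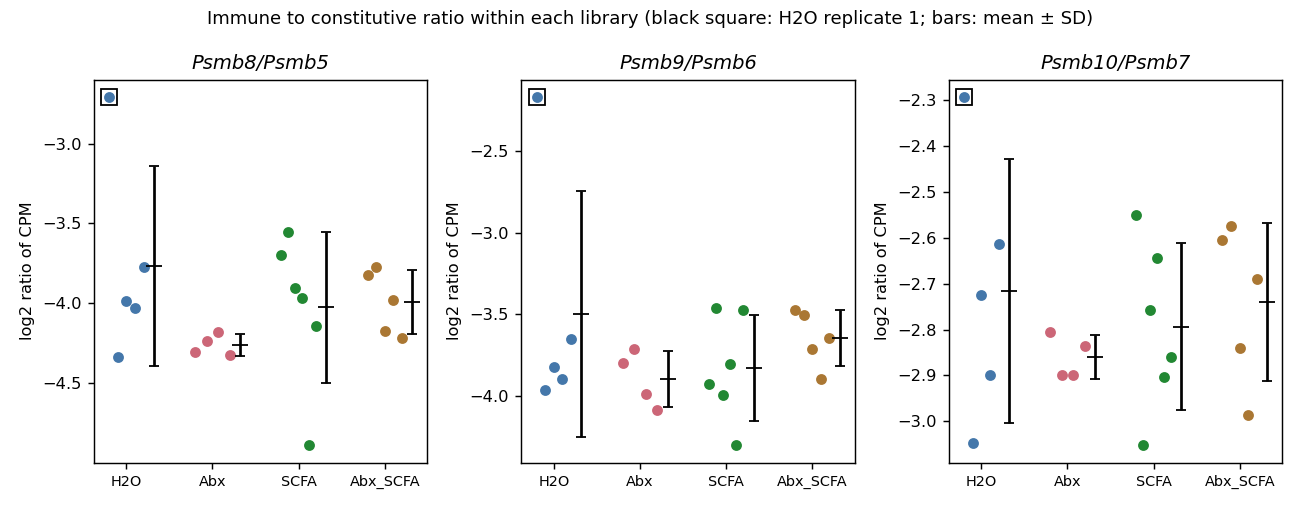
Log2 ratio of immune to constitutive subunit CPM within each library for Psmb8/Psmb5, Psmb9/Psmb6 and Psmb10/Psmb7, with 1 point per library, bars for the mean ± SD and H2O replicate 1 boxed; the vertical axes do not start at 0 and differ between panels. The 4 Abx libraries lie close together, from -4.33 to -4.18 for Psmb8/Psmb5, and H2O replicate 1 is the highest point in each panel.

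Between libraries of the same group, most proteasome genes varied little. The pooled within-group standard deviation of log2 CPM had a median of 0.10 over the 42 members other than the immune and thymic subunits, against 0.16 over all 12846 genes, and 40 of the 42 were below that value. Expression level differs between these sets, and low genes vary more. Psmb5, Psmb6 and Psmb7 had 0.11, 0.10 and 0.12. Psmb8 and Psmb9 had 0.41 and 0.44, at the 86.8th and 88.8th percentile of all genes, where counting error alone gives 0.13 and 0.14. Without H2O replicate 1 they had 0.27 and 0.23, at the 74th and 68.1th percentile. Psmb10 had 0.13, and 0.076 without that library. The most variable of the other members was Psme4 with 0.20, whose lowest value, 132 CPM, was in H2O replicate 5.

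**Figure D5:**
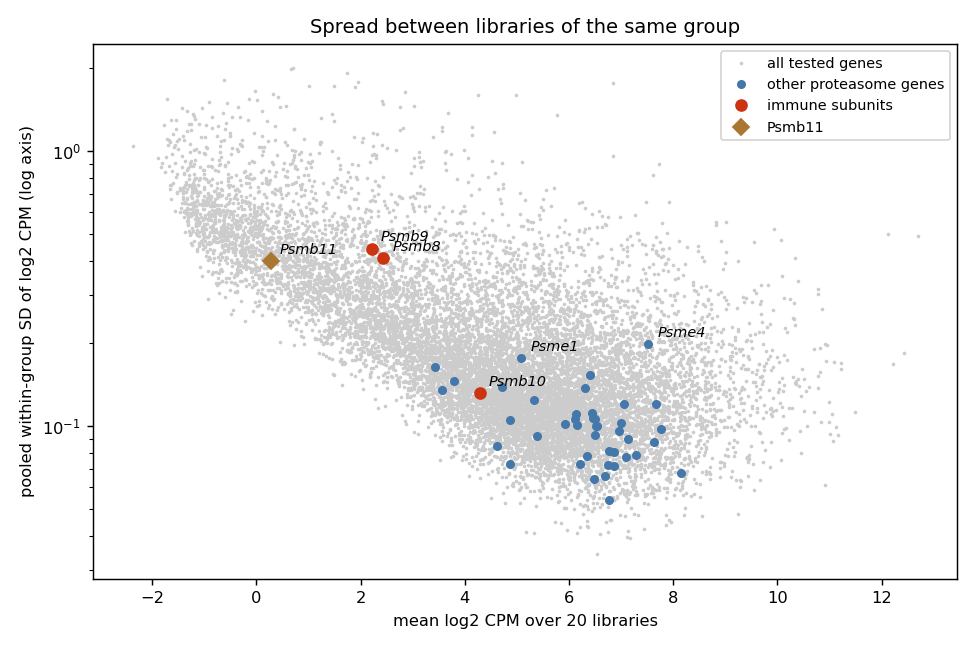
Pooled within-group standard deviation of log2 CPM (log axis) against mean log2 CPM for all tested genes (grey), the 42 other proteasome genes (blue), the immune subunits (red) and Psmb11 (brown diamond). The blue points lie in the lower part of the grey cloud with a median of 0.10, and Psmb8 and Psmb9 lie at 0.41 and 0.44.

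In some libraries most of the 42 members deviated in the same direction. Abx_SCFA replicate 4 was above the gene's own mean for 35 of 42 members and highest of 20 libraries for 11 of them, with a median deviation of 0.12 log2. H2O replicate 2 was above for 37 members (median 0.11) and SCFA replicate 2 for 36 (median 0.09). H2O replicate 5 was above for 4 members and lowest of all libraries for 13 (median -0.11), and SCFA replicate 4 was above for 3 (median -0.10). The high and the low libraries named thus belonged to H2O, SCFA and Abx_SCFA. In the 4 Abx libraries 13 to 25 members were above, with medians of -0.04 to 0.01. Over all genes the library medians lay between -0.01 and 0.02, and without scaling factors the 5 values were 0.08, 0.07, 0.10, -0.10 and -0.10. Of all genes, 53.1% were above their own mean in Abx_SCFA replicate 4, 52.9% in H2O replicate 2 and 53.5% in SCFA replicate 2. The share was 51.3% in H2O replicate 5, 50% in SCFA replicate 4 and 47.2% to 52.2% in the Abx libraries. Shares of all genes highest or lowest of 20 libraries were not computed. Leaving out H2O replicate 5 changed the positive members in Abx against H2O from 16 to 9, and leaving out H2O replicate 2 changed them to 26.

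Among the catalytic genes, 9 relations across the 20 libraries were examined. Psmb5 and Psmb7 had a Pearson r of 0.758 and a Spearman rho of 0.732 (permutation p adjusted over the 9 relations, 0.000945 and 0.00396), and r was 0.729 without the 2 libraries farthest from the Psmb5 median. Psmb5 and Psmb6 had r = 0.664 and rho = 0.623 (adjusted permutation p = 0.00492 and 0.0117), and r = 0.581 without 2 libraries. Psmb8 and Psmb9, adjacent to the Tap genes, had r = 0.878 and rho = 0.624 (adjusted permutation p = 0.00027 and 0.0117), with r = 0.533 without the 2 farthest libraries, H2O replicate 1 and SCFA replicate 5, and r = 0.654 within the 11 libraries of the 400 series. Psmb10 with Psmb8 and with Psmb9 had r = 0.726 and 0.748, rho = 0.417 and 0.478 (adjusted permutation p of rho = 0.104 and 0.0771), and r = 0.342 and 0.289 without H2O replicate 1, so that these relations rest on that library. An immune subunit and the subunit it replaces had r = 0.0146 (Psmb8, Psmb5), 0.274 (Psmb9, Psmb6) and -0.232 (Psmb10, Psmb7), with adjusted permutation p of 0.331 or more. The remaining relation, Psmb6 with Psmb7, had r = 0.584 and rho = 0.426 (adjusted permutation p = 0.0112 and 0.104).

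Genes that feed or assemble the proteasome also gave no call (edgeR, adjusted p below 0.05). Of 22 tested genes for assembly, shuttling and subunit transcription, 3 reached an unadjusted p below 0.05 in SCFA against H2O, 2 higher and 1 lower. In the other contrasts 0 did. Of all genes, 8.2% were higher and 5.58% lower at that level in SCFA against H2O, 13.8% in both directions together. Midn, which brings proteins to the proteasome without ubiquitin, was 0.22 ± 0.093 there, and the shuttle gene Ubqln2 -0.16 ± 0.074. Leaving out H2O replicate 1 gave 0.20 and -0.15, and 0 of the 22 genes reached that level, beside 6.12% of all genes higher and 4.69% lower. Of 24 ubiquitin genes, 1 was higher and 3 were lower in Abx against H2O, beside 3.26% of all genes higher and 5.53% lower. Ube2d1, a ubiquitin-conjugating enzyme, was at -0.29 ± 0.095 and the activating enzyme Uba6 at -0.17 ± 0.066. In SCFA against H2O 1 was higher, the mitotic enzyme Ube2c at 1.79 ± 0.49, from 0.22 to 0.85 CPM in H2O to 0.52 to 3.24 CPM in SCFA. In Abx_SCFA against H2O 2 were lower (3.46% of all genes), Uba6 at -0.22 ± 0.063 and Usp9x, a deubiquitinase, at -0.15 ± 0.063. In Abx_SCFA against SCFA 1 was lower (4.06% of all genes), Uba6 at -0.15. In the interaction 1 was lower (5.01% of all genes), Ube2c at -2.10 ± 0.69. When H2O replicate 1 was left out, the 3 lower ubiquitin genes in Abx against H2O remained at an unadjusted p below 0.05 and 0 were higher. Of all genes, 6.05% were lower and 2.8% higher in that fit.

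Some of the 25 tested MHC class I and interferon genes use or induce the immune proteasome. Of the 25, 7 were lower and 0 higher at an unadjusted p below 0.05 in Abx against H2O. In that contrast 22 were negative, with a median of -0.32. RT1-A2, a class I heavy chain, was -0.81 ± 0.21 (unadjusted p = 0.00102, edgeR adjusted p = 0.563). Its CPM was 49.2 to 73.9 in H2O and 26.4 to 47.7 in Abx, so that these groups did not overlap. Erap1, the peptide-trimming aminopeptidase, was -0.34 ± 0.11, and at -0.38 ± 0.099 in Abx_SCFA against H2O, where 3 genes were lower. With H2O replicate 1 left out, 3 genes of the list were lower in Abx against H2O, RT1-A2 at -0.73 ± 0.22, Erap1 at -0.33 ± 0.11 and B2m at -0.19 ± 0.091, and 18 were negative with a median of -0.09. In SCFA against H2O 2 were lower, Gbp2 at -1.37 ± 0.55 and Tap1 at -0.78 ± 0.32, both of which were highest in H2O replicate 1. Without that library they were 0.23 and -0.12, 0 genes were lower and 2 were higher. In Abx_SCFA against H2O 2 genes were lower without it. In Abx_SCFA against Abx 2 were higher, RT1-A2 at 0.67 ± 0.21 and B2m at 0.30 ± 0.13. In the interaction 3 were higher, with RT1-A2 at 0.84 ± 0.28 and B2m at 0.43 ± 0.17, and in Abx_SCFA against SCFA 1 was lower, Erap1 at -0.26. The counts without H2O replicate 1 were 4 higher in Abx_SCFA against Abx, 2 higher in the interaction, where RT1-A2 was 0.76 and B2m 0.26, and 2 lower in Abx_SCFA against SCFA. None was called after adjustment, with edgeR adjusted p from 0.29 upward. With all 20 libraries, the shares of all genes at this unadjusted level were, higher and lower, 3.26% and 5.53% in Abx against H2O. They were 8.2% and 5.58% in SCFA against H2O and 2.09% and 3.46% in Abx_SCFA against H2O. They were 1.85% and 1.34% in Abx_SCFA against Abx, 2.72% and 4.06% in Abx_SCFA against SCFA, and 2.83% and 5.01% in the interaction. Without H2O replicate 1 the shares of all genes, in the same order, were 2.8% and 6.05%, 6.12% and 4.69%, and 1.88% and 4.34% against H2O. For the last 3 contrasts they were 1.92% and 1.29%, 2.6% and 4.12%, and 2.68% and 3.93%.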

How the data were processed

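Counts per gene symbol for 20 nucleus accumbens libraries were deposited by the authors as 1 table of whole numbers. STAR 2.4.0, FastQC 0.11.6, limma and the build Rnor_6.0 are named per the submitters' processing notes. Which tool counted, on which annotation and with which strand setting, is not given in the sources used here. Overlapping genes and near-identical copies can therefore share reads. Groups came from the treatment labels, and each rat counted as 1 replicate.

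The edgeR 4.0.16 quasi-likelihood F test (R 4.3.3, robust, TMM scaling) was fitted as 1 model of the 4 groups over all genes passing filterByExpr (minimum 10 counts in a median library, 15 in total), with 16 residual degrees of freedom. The call threshold was 0.05 for p adjusted by Benjamini-Hochberg over 12846 genes. Standard errors were derived from the F statistic. CPM used TMM-adjusted library sizes, and log2 CPM a prior count of 2. The interaction subtracts the Abx against H2O difference from that of Abx_SCFA against SCFA. Ratios were tested by exact permutation and correlations by 100000 permutations (scipy 1.17.1). The floor for a count of 0 is 3 counts, 0.115 to 0.171 CPM, for counting error only.

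The members and lists were chosen with earlier results of these data known. Genes named are the immune subunits and their counterparts, Psme1, Psme2 and, per contrast, the 3 members of each sign with the smallest p; of each other list, at most 2 per contrast. Genes of the MHC class I list in the paragraph on H2O replicate 1, and Psmb4, Psmd2, Psmd10 and Psma8, are named as a description. Alternatives were other scalings, filters and tools (DESeq2 1.42.0, limma-voom 3.58.1), covariates and leaving out libraries. The script was tested on simulated data. RefSeq names and sequences are from GRCr8, which is not the authors' build.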

Additional observations from a re-analysis of the deposited data

Results flagged for a closer look

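Psmb8 in H2O replicate 1, at 13.4 CPM, lay far from the other 4 H2O libraries, which ran from 4.63 to 5.44 CPM. Psmb9 in the same library was at 13.8 CPM, against 3.79 to 4.40 CPM, and Psmb10 at 26.1 CPM, against 17.9 to 19.2 CPM. The log2 ratio of Psmb9 to Psmb6 there was -2.17, against -3.96 to -3.65 in the other H2O libraries. Psmb10 in SCFA replicate 1 was at 22.4 CPM, against 18.3 to 19.3 CPM in the other 5 SCFA libraries. These 5 values were found among 92 groups of values examined, and chance gives about 1 in 20.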

How the results depend on the processing

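No proteasome gene was called at an adjusted p below 0.05 in any contrast under any of the alternatives run, and the smallest adjusted p of a member over all of them was 0.174, in SCFA against H2O without H2O replicate 5. The numbers of genes called over the whole table by DESeq2 were 1 in Abx against H2O, 10 in SCFA against H2O, 1 in Abx_SCFA against H2O and 3 in Abx_SCFA against SCFA, and none of them was a member. The number of members at an unadjusted p below 0.05 in Abx against H2O was 4, beside 1129 of all 12846 genes. It was 1 without H2O replicate 1 (1137 of all genes) and 1 without Abx replicate 3 (626). It was 2 without Abx replicate 1 (890), without Abx replicate 4 (1021), with the number series as a term (1235) and with the cortical covariate (1118). It was also 2 with the H2O and Abx libraries alone (1285) and by limma-voom without (1101) and with quality weights (1677). Without H2O replicate 3 it was 5 (842). Between 12599 and 12922 genes were tested in these fits.

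Of the fold changes named, 1042 kept their direction and side of the threshold and 18 turned sign when 1 library was left out, and 565 kept and 18 turned under the other alternatives. Leaving out each library in turn, SCFA against H2O ranged from -0.38 to 0.15 for Psmb8, -0.64 to 0.046 for Psmb9, -0.082 to 0.071 for Psmb10 and -0.13 to 0.030 for Psme1. Abx_SCFA against H2O ranged from -0.39 to 0.14 for Psmb8, -0.45 to 0.22 for Psmb9 and -0.051 to 0.099 for Psmb10, and Abx_SCFA against SCFA from -0.13 to 0.098 for Psmb8, -0.000036 to 0.075 for Psmb10 and -0.048 to 0.035 for Psme2. The ratio differences ranged, in Abx against H2O, from -0.64 to -0.23 for Psmb8/Psmb5, -0.51 to -0.064 for Psmb9/Psmb6 and -0.23 to -0.039 for Psmb10/Psmb7, in SCFA against H2O, from -0.40 to 0.0045 for Psmb8/Psmb5, -0.44 to 0.0059 for Psmb9/Psmb6 and -0.16 to 0.027 for Psmb10/Psmb7, in Abx_SCFA against H2O from -0.37 to 0.038, -0.26 to 0.19 and -0.11 to 0.082, and in Abx_SCFA against SCFA from -0.14 to 0.13 for Psmb8/Psmb5. With limma-voom, Psmb10 was 0.0038 in Abx_SCFA against H2O (0.0025 with quality weights), and Psmb8 0.057 and Psme2 0.0058 in Abx_SCFA against SCFA. With a cortical marker score as a covariate, Psmc5 was -0.044 in Abx against H2O, -0.039 in SCFA against H2O, -0.043 in Abx_SCFA against H2O and 0.041 in the interaction. With the same covariate Psme3 was -0.072 in Abx against H2O, Psmd12 was 0.029 in the interaction, and SCFA against H2O was 0.078 for Psmb8, 0.048 for Psmb10 and 0.0089 for Psme2, and Abx_SCFA against H2O 0.021 for Psmb8, 0.0041 for Psmb9 and 0.062 for Psmb10. With alternatives chosen after seeing the data, Psmd12 was 0.027 in Abx_SCFA against SCFA without SCFA replicates 2 and 5, and Psmb8 was 0.041 there without H2O replicate 4 and Abx_SCFA replicate 5. The cause of these changes was not tested.

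No paired analysis was possible because the replicate numbers only name the libraries and pair no rats. Depth limits Psmb8, Psmb9 and Psmb11, which had 15 to 264 counts per library, and Psma8, which was not tested. With 4 to 6 rats a group, the 95% interval of Psmb8 in Abx against H2O ran from -1.19 to -0.04 log2. Cage mates were treated as separate rats.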
